A study of Homo sapiens with 6 samples.

Results

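The genes that take up, store and export iron were examined in SCC25, an established cell line derived from an oral squamous cell carcinoma (a head and neck squamous cell carcinoma, HNSCC), under hypoxia and normoxia. They are 10 genes, TFRC, TF, SLC11A2, STEAP3, FTH1, FTL, SLC40A1, CP, ACO1 and IREB2, chosen by name for their function, and all 10 were found among the 21776 genes of the deposited tables. All cells were wild type and were grown in DMEM/F12 with 10% fetal bovine serum and antibiotics. The hypoxia group was held for 12 h in a tri-gas incubator with 1% O2 and 5% CO2, the rest being N2, and the normoxia group for 12 h at 37 °C in 95% air and 5% CO2. RNA sequencing gave 3 libraries per condition. In replicate order, the hypoxia libraries held 30186813, 36076088 and 32272716 counts in total, and the normoxia libraries 37278703, 29637189 and 29981208. The labels do not say whether the libraries of a condition came from separate cultures, so the p-values measure the spread between these libraries, which may be technical. A single cell line at a single time was sampled.

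Most cells take up iron bound to transferrin (TF), which binds the transferrin receptor (TFRC). In the endosome the reductase STEAP3 converts ferric to ferrous iron, which SLC11A2 (DMT1) carries to the cytosol. Iron not in use is stored in ferritin, a shell of heavy (FTH1) and light (FTL) chains, of which only the heavy chain oxidises iron. Ferroportin (SLC40A1) is the only known cellular exporter of iron, and ceruloplasmin (CP) is a copper oxidase that helps to load the exported iron onto transferrin. The iron regulatory proteins IRP1 (ACO1, which is the cytosolic aconitase when it holds an iron-sulfur cluster) and IRP2 (IREB2) bind RNA hairpins called iron-responsive elements when iron is scarce. Bound in the 5′ untranslated region they block translation, as in ferritin and ferroportin, and bound in the 3′ untranslated region they protect the transcript from decay, as in TFRC. RNA levels therefore leave out the translational part of this control, and no protein was measured in these libraries.

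The hairpins are shown because the members differ in where matches to them were found. The transcripts of GENCODE v29 (GRCh38) were searched for 17 bases that hold a bulged C, 5 stem pairs and a 6-base loop starting CAGTG. Such a match lay in the 5′ untranslated region of 22 of 18781 genes (0.117%) and in the 3′ untranslated region of 101 of 19088 genes (0.529%). Each sequence below is 29 bases long and is read 5′ to 3′ on the strand of its gene, with the bulged C and the loop in capitals. FTH1 has 1 match in its 5′ untranslated region, chr11:61967574-61967602 on the minus strand:
FTH1: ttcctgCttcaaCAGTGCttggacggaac
FTL has 1 in its 5′ untranslated region, chr19:48965335-48965363 on the plus strand:
FTL: ctcttgCttcaaCAGTGTttggacggaac
SLC40A1 has 1 in its 5′ untranslated region, chr2:189580661-189580689 on the minus strand:
SLC40A1: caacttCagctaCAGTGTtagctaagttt
TFRC has 4 in its 3′ untranslated region on the minus strand, and the first and the last in transcript order, chr3:196050979-196051007 and chr3:196050463-196050491, are shown:
TFRC first: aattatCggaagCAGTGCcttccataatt
TFRC last: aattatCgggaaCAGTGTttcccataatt

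The other matches of TFRC lie at chr3:196050575-196050603 and chr3:196050510-196050538. TF had 1 match in the 3′ untranslated region of a long transcript, and SLC11A2, STEAP3, CP, ACO1 and IREB2 had none, which says only that these letters were not found there. The search was strict, and a hairpin with an unpaired base in the stem or another loop would be missed. The 2 ferritin hairpins share the bulge, the upper stem and all but the last base of the loop.

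The labels were checked against genes that respond to low oxygen. All 15 of the listed hypoxia response genes rose under hypoxia by edgeR's quasi-likelihood test at an adjusted p-value under 0.05, with a median log2-fold change of 2.71, where 39.2% of all tested genes rose. NDRG1 rose by a log2-fold change of 5.40, VEGFA by 2.80 and CA9, a carbonic anhydrase, by 2.71. Normoxia replicate 3 stood apart from the other two normoxia libraries. Its CA9 was 67.7 CPM (the usual unit of counts scaled to library size, here the TMM-adjusted total) against 32.2 and 27.3 in normoxia replicates 1 and 2, and its NDRG1 was 409 CPM against 163 and 140. For this reason the log2-fold changes of the tested genes among the 10 named above are also given without it.

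The squamous identity was checked with 8 markers, of which 7 passed the filter on low counts. Among them KRT5 was at 111 ± 5.49 CPM under hypoxia and 126 ± 9.90 under normoxia (SD, n = 3), and TP63 at 68.3 ± 3.56 and 62.7 ± 17.1. KRT14 had at most 1 count in any library. Of the 7, 6 changed by edgeR's quasi-likelihood test (85.7%, near the 77.8% of all tested genes): CDH1, DSG3 and PERP rose by log2-fold changes of 1.35, 1.35 and 0.54, and KRT6A, SFN and KRT5 fell, KRT6A from 16.5 to 0.951 CPM. Of the 4 hepatocyte markers listed in the tables, ALB, APOA1 and APOB had at most 3 counts in every library, whereas SERPINA1, also made by epithelial cells, was at 344 and 314 CPM. The leukocyte markers PTPRC, CD3E, LYZ and TYROBP likewise had at most 3 counts, and the most abundant one, CD68, was at 31.0 and 33.1 CPM. CD14 rose from 1.07 to 5.83 CPM (edgeR adjusted p = 7.27e-08). The 6 leukocyte markers summed to 33.6, 37.4 and 39.6 CPM under hypoxia and 33.6, 33.0 and 35.9 under normoxia. The 6 fibroblast markers summed to 22.1, 18.7 and 17.1 CPM under hypoxia and 4.03, 3.15 and 5.64 under normoxia. Most of this was COL1A1, at 18.0 and 3.76 CPM. LUM had 27, 9 and 8 counts under hypoxia and 1, 1 and 2 under normoxia, PDGFRB 24, 19 and 20 against 13, 7 and 11, and COL1A2, COL3A1 and DCN at most 9 in any library. The endothelial markers, led by CDH5, summed to 1.67, 1.26 and 1.51 CPM under hypoxia and 0.296, 0.315 and 0.744 under normoxia. The erythroid markers, led by HBG2, summed to 1.02, 0.591 and 0.863 CPM against 0.134, 0.105 and 0.541. CDH5 had 32, 28 and 34 counts against 9, 9 and 22, and HBG2 26, 18 and 24 against 5, 3 and 16. Both passed the filter on low counts through the group where they were high, so no call is given for them. The part of these cell types in the changes of the iron genes was not tested. In bulk RNA, fewer cells expressing a gene and less RNA per cell cannot be told apart.

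Under hypoxia, the ferritin heavy chain FTH1 rose, while the light chain FTL, the transferrin receptor TFRC and both iron regulatory proteins, ACO1 and IREB2, fell by smaller amounts. The divalent metal transporter SLC11A2 was also lower, with a call that was lost in 4 of 6 fits that left out 1 library and in 6 of 8 other alternatives. STEAP3 did not pass the test. TF, SLC40A1 and CP were under the filter on low counts and are given as counts. Of the 10 genes, 7 were thus tested and 6 of them (85.7%) changed by edgeR's quasi-likelihood test, beside 77.8% of all 14255 genes tested, so the number of changed genes says little about iron genes as such; it is 5 of 7 where the call of SLC11A2 is lost. Of the tested genes 1 rose and 5 fell, where 39.2% of all genes rose and 38.5% fell. The median log2-fold change of the 7 was -0.19, against 0.02 over all genes, and 0 of them had a call together with a change of more than 1 in size on the log2 scale, as 30.4% of all tested genes had. In the same 6 genes the CPM of the conditions did not overlap (1 higher, 5 lower), as in 80.5% of all genes (40.6% higher, 39.9% lower).

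Levels can be set side by side between genes only per length, in FPKM (fragments per kilobase of gene, scaled to the library total). By the mean FPKM over the libraries of a condition, FTH1 stood first in both, at 4669.9 ± 248 under hypoxia and 2410.9 ± 120 under normoxia (SD, n = 3). FTL followed at 1171.7 ± 28.0 and 1445.3 ± 80.9, and TFRC at 157 ± 2.51 and 173 ± 3.89. Each of these steps was larger than the spread between the libraries. ACO1 and STEAP3 came next and did not differ beyond their spread under hypoxia, with 15.0 ± 0.568 and 15.3 ± 0.491 FPKM. Under normoxia ACO1 was the higher, at 18.9 ± 0.981 FPKM against 14.8 ± 0.731 for STEAP3. SLC11A2 was at 9.45 ± 0.415 and 10.0 ± 0.258 FPKM, and IREB2 at 5.62 ± 0.196 and 6.99 ± 0.367. CP, TF and SLC40A1 lay at or near 0.

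**Figure D1:**
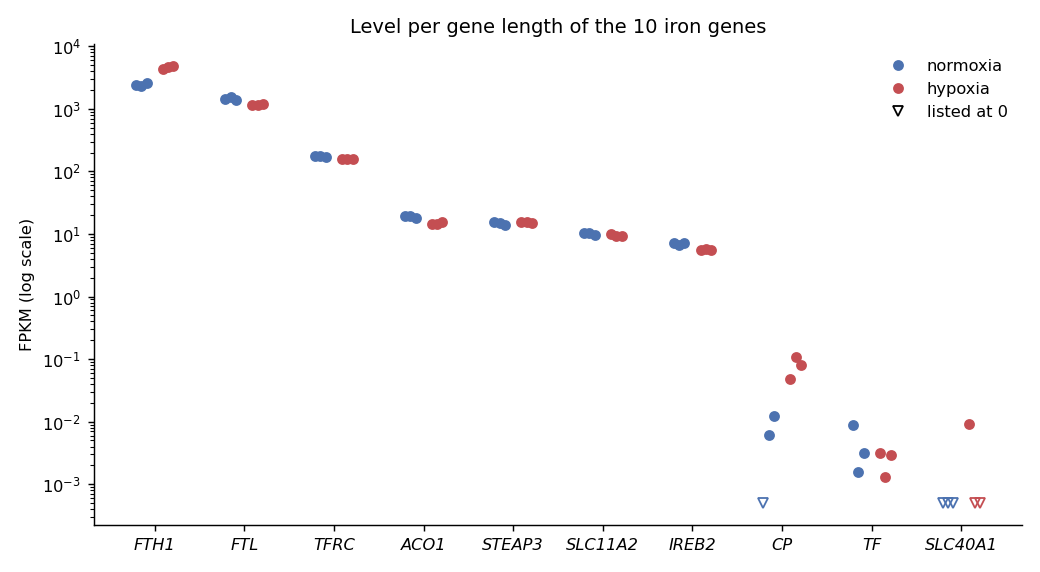
FPKM of the 10 iron genes on a log axis, 1 point per library, with normoxia in blue, hypoxia in red and open triangles for libraries listed at 0. The 2 ferritin chains stand above 1000 FPKM in every library, TFRC between 155 and 176, and SLC40A1 is at 0 in 5 of 6 libraries.

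The storage genes moved in opposite directions. FTH1 was at 5223.4, 5542.6 and 5824.2 CPM under hypoxia and at 2868.4, 2876.9 and 3101.1 CPM under normoxia (replicates 1, 2 and 3, as in all such lists). All hypoxia libraries lay well above all normoxia libraries. The increase was 1.88-fold, a log2-fold change of 0.91 (SE 0.0559, 95% interval 0.79 to 1.03, edgeR adjusted p = 1.13e-10), and it was 0.93 without normoxia replicate 3. FTH1 was already among the most counted genes under normoxia, ranking 16, 17 and 15 in the 3 libraries, and ranked 10 in each hypoxia library. By the size of the log2-fold change it was not extreme in these data, since 34.8% of all tested genes changed more. FTH1 shares 1267 exon bases in GENCODE v29 with BEST1 on the other strand, and BEST1 was counted at 8.29 CPM under hypoxia and 4.91 under normoxia. The deposited FPKM imply a length of 1203 bases for FTH1, so the overlap in the gene model used for the counts is not known.

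FTL was at 993, 978 and 1043 CPM under hypoxia and at 1268.2, 1372.9 and 1201 CPM under normoxia. The conditions did not overlap, and normoxia replicate 3 was the normoxia library nearest to hypoxia. The log2-fold change was -0.35 (SE 0.0561, 0.785-fold, edgeR adjusted p = 2.07e-05), and -0.41 without normoxia replicate 3. Processed copies of the ferritin genes are common in the human genome, and 0 such copies were listed beside FTH1 and FTL in the table, so how reads shared with them were counted is not known.

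**Figure D2:**
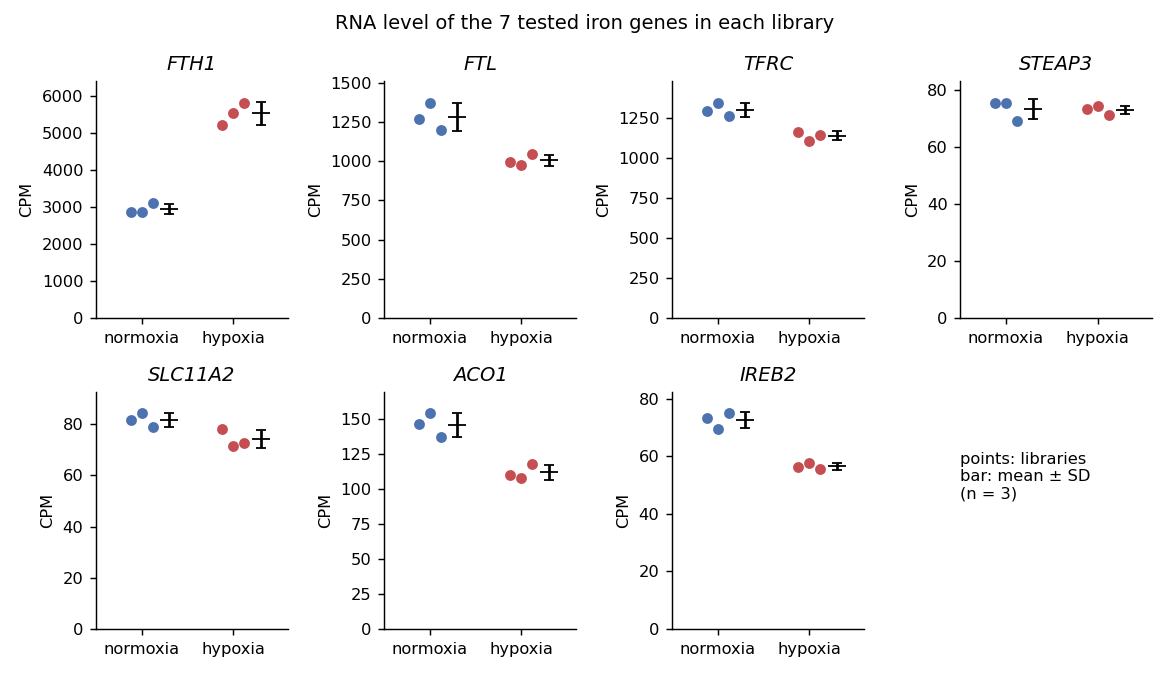
CPM of the 7 tested iron genes in each library, normoxia in blue and hypoxia in red, with the mean and SD of 3 libraries as a bar beside the points and every axis starting at 0. FTH1 is higher in all hypoxia libraries, STEAP3 overlaps between the conditions, and the other 5 are lower in all hypoxia libraries.

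The opposite changes shifted the ratio of the 2 chains. Per length, FTH1 exceeded FTL by 3.81, 4.10 and 4.04 times in the hypoxia libraries and by 1.64, 1.52 and 1.87 times in the normoxia libraries. The ratio, in which library size cancels, was thus 2.39-fold higher under hypoxia, a difference of 1.26 on the log2 scale, with no overlap between the conditions. The exact two-sided permutation test gave p = 0.1, the smallest that 3 against 3 libraries can give, and 0.15 after Benjamini-Hochberg adjustment over 3 ratios. FTH1 and FTL together took 0.629%, 0.672% and 0.69% of all counts under hypoxia and 0.413%, 0.41% and 0.425% under normoxia. The mean share was 0.664% ± 0.0317 against 0.416% ± 0.00756 (SD, n = 3; exact permutation p = 0.1).

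The uptake genes changed little. TFRC was at 1165.1, 1108.9 and 1144.5 CPM under hypoxia and at 1291.3, 1345.9 and 1261.9 CPM under normoxia. The conditions were close but did not overlap. The log2-fold change was -0.19 (SE 0.0498, 0.877-fold, edgeR adjusted p = 0.00224), smaller than that of 83.3% of all tested genes. It was -0.23 without normoxia replicate 3, and with only the genes of at least 10 counts in every library it was -0.11 (edgeR adjusted p = 0.0431). Per length, the ratio of TFRC to ferritin (FTH1 and FTL together) was 0.0287, 0.0262 and 0.0256 under hypoxia and 0.0455, 0.0459 and 0.0431 under normoxia. This ratio was 0.598 times as high under hypoxia, a log2 difference of -0.74, without overlap (exact permutation p = 0.1, adjusted 0.15).

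**Figure D3:**
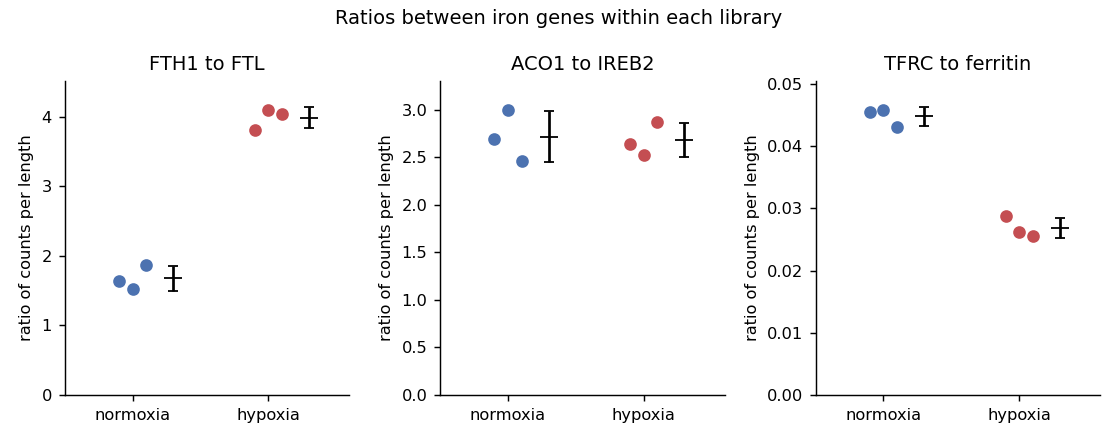
Ratios of counts per length between iron genes within each library, with the mean and SD of 3 libraries as a bar and axes starting at 0. FTH1 to FTL is higher (3.81 to 4.10 against 1.52 to 1.87) and TFRC to ferritin lower (0.0256 to 0.0287 against 0.0431 to 0.0459) in all hypoxia libraries, whereas ACO1 to IREB2 overlaps.

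The endosomal reductase STEAP3 was at 73.6, 74.4 and 71.5 CPM under hypoxia and at 75.7, 75.4 and 69.4 CPM under normoxia. The libraries of the conditions interleaved. The log2-fold change was -0.01 with a 95% interval of -0.13 to 0.11 (edgeR adjusted p = 0.921), and it was -0.06 without normoxia replicate 3. Its sign turned with at least 10 counts in every library, in FPKM and in 3 of 6 fits that left out 1 library. A change of the size of that of FTL lay outside this interval.

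SLC11A2, which carries ferrous iron out of the endosome, was at 78.3, 71.7 and 72.7 CPM under hypoxia and at 81.5, 84.3 and 78.8 CPM under normoxia. Hypoxia replicate 1 and normoxia replicate 3 nearly met, at 78.3 and 78.8 CPM. The log2-fold change was -0.14 (95% interval -0.26 to -0.02, edgeR adjusted p = 0.0376). This call was lost in 4 of 6 fits that left out 1 library, namely hypoxia replicate 2 or 3 or normoxia replicate 1 or 2, in which the log2-fold change ranged from -0.115 to -0.151. It was also lost with at least 10 counts in every library (-0.0585, edgeR adjusted p = 0.341), with limma on FPKM (-0.0808, adjusted p = 0.191), with the DESeq2 Wald test (adjusted p = 0.0608) and with the replicate number as a block (adjusted p = 0.0629). Without normoxia replicate 3 it was -0.18 (edgeR adjusted p = 0.00826). TF, a plasma protein made mainly by the liver, had 2, 1 and 2 counts under hypoxia and 7, 1 and 2 under normoxia. The ratio of the counts, each relative to the summed library totals, was 0.492 with an exact 95% interval of 0.132 to 1.58 that covers counting error only, so a difference was not detectable at this depth. TF shares 112 exon bases with SRPRB on the same strand, which was at 24.4 CPM under hypoxia and 92.6 under normoxia, and the part of SRPRB reads in the TF counts was not tested.

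Export genes were barely detected. SLC40A1 had 1 count in hypoxia replicate 1 and 0 in the other 5 libraries. The 0 counts over the normoxia libraries allow up to 3 counts, or 0.031 CPM, for counting error only. No fold change is given. CP had 8, 21 and 14 counts under hypoxia and 0, 1 and 2 under normoxia. Every hypoxia library thus held more CP counts than any normoxia library, at a level far under 1 CPM. The sums of 43 and 3 counts gave a ratio of 14.1, with an exact 95% interval of 4.51 to 71.0 for counting error only. CP was not among the tested genes. Without the filter on low counts its log2-fold change was 3.53 (edgeR adjusted p = 0.000394), and in the 4 fits with 1 library left out that included it, the value ranged from 2.94 to 4.48. On log2(FPKM + 1), where the pseudocount outweighs such low values, it was 0.10 (limma adjusted p = 0.00848). These fits depend on the prior count or pseudocount, and those with 1 library left out include CP through the group where it is high. CP shares 1418 exon bases with HPS3 on the other strand, and HPS3 was at 142 CPM under hypoxia and 49.6 under normoxia. Whether the counting used the strand is not given in the sources used here, and the part of HPS3 reads in the CP counts was not tested.

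Both iron regulatory proteins fell. ACO1 was at 110, 108 and 118 CPM under hypoxia and at 146, 154 and 137 CPM under normoxia. IREB2 was at 56.1, 57.8 and 55.4 CPM under hypoxia and at 73.1, 69.4 and 74.9 CPM under normoxia. In neither gene did the libraries overlap. The edgeR quasi-likelihood test gave a log2-fold change of -0.38 for ACO1 (SE 0.0587, adjusted p = 1.49e-05) and -0.36 for IREB2 (SE 0.0567, adjusted p = 1.66e-05). Without normoxia replicate 3 the log2-fold changes were -0.44 and -0.35. Since both fell by a like amount, their ratio per length overlapped, at 2.64, 2.52 and 2.87 under hypoxia and 2.69, 3.00 and 2.46 under normoxia. The log2 difference of the ratio was -0.02 (exact permutation p = 0.9), and it turned to 0.027 without hypoxia replicate 2 and to 0.0579 without normoxia replicate 2.

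Promoters were read from RefSeq (GRCh38.p14), in which 8 of the 10 genes had an entry. They were searched on both strands for ACGTG and GCGTG, the core of the hypoxia response element bound by HIF1, which read CACGT and CACGC on the other strand. Of all 35116 promoter windows of 300 bases, 48.4% held at least 1 match, so a match is common, and 43.2% held one in the 250 bases before the start. The promoters of TFRC and FTL are shown because both genes are known for other control, by hairpins in their transcripts, and both were lower under hypoxia. The 250 bases before the start of each are given 5′ to 3′ on the strand of the gene, with matches in capitals. TFRC, chr3:196082091-196082340 on the minus strand, holds 1 match, which starts 88 bases before the gene:
TFRC: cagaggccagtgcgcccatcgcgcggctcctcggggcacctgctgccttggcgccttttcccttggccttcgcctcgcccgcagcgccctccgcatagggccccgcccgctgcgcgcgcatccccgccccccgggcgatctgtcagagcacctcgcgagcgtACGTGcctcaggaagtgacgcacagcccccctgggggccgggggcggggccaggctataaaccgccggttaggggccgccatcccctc
FTL, chr19:48965059-48965308 on the plus strand, holds 3, which start 195, 177 and 11 bases before the gene:
FTL: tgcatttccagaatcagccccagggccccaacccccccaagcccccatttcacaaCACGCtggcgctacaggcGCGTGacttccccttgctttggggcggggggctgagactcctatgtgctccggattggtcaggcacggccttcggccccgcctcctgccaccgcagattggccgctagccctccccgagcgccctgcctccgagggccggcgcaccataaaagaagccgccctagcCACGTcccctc

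ACO1 had 1 match, 5 bases before its start, and IREB2 had 1 in one of its windows, 203 bases before the start. SLC11A2 had matches in 3 of its 4 windows, and TF had 1 in one of its 2 windows, after the start. STEAP3 and SLC40A1 had none. Thus 6 of the 8 genes had a match in at least 1 window, beside 48.4% of single windows, and genes with several windows had more chances of one. A match is a description of the letters and not a binding site.

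The genes with the most similar profile over the 6 libraries were found by the root mean square difference of log2 CPM, after each of 9611 genes was centred on its own mean. For FTH1, the tested member with the largest increase, they were GABARAP (0.0246), RABAC1 (0.0303) and TGFBR1 (0.0308), with log2-fold changes of 0.88, 0.89 and 0.88. ACO1 had the largest fitted decrease of the tested members, which did not differ from those of IREB2 and FTL beyond the errors. The genes most similar to ACO1 were the copper importer SLC31A1 (0.0195), FTL (0.0204) and the proton pump subunit ATP6V0C (0.0206). Their log2-fold changes were -0.35, -0.35 and -0.38. Closeness over 6 libraries of 2 conditions is mostly closeness of the difference between the conditions.

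The wider iron pathway was given by 71 other genes in 7 lists, of which 65 were in the table and 63 were tested. By edgeR's quasi-likelihood test 16 rose, 36 fell and 11 did not pass, so 82.5% changed, beside 77.8% of all genes. The 36 include BMP6, which passed the filter on low counts through the group where it was high, so its call is no support. The share that fell was 57.1%, beside 38.5% of all genes, and the median log2-fold change was -0.37, beside 0.02. No test of a list was made.

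Of 10 tested genes for other routes of uptake and for iron reduction, 4 rose, 4 fell and TFR2 and STEAP2 did not pass the test, so 80.0% changed, near the 77.8% of all tested genes. CYBRD1, a ferric reductase of the plasma membrane, was at 159 ± 0.7 CPM under hypoxia and 45.9 ± 9.52 under normoxia (SD, n = 3), a log2-fold change of 1.80. STEAP1, a relative of STEAP3, fell from 36.5 ± 2.09 to 10.1 ± 1.26 CPM, a log2-fold change of -1.86. SLC39A8 (ZIP8), an importer of zinc and iron, fell from 58.4 ± 6.67 to 25.5 ± 1.45 CPM, a log2-fold change of -1.20. The other genes that rose were STEAP4, HFE and LCN2, and the others that fell were SLC39A14 and MCOLN1; these were named after their values were seen. Among the relatives of STEAP3, STEAP2 likewise did not pass the test (log2-fold change -0.13, SE 0.0725), and STEAP1 and STEAP4 passed it in opposite directions, at -1.86 and 2.05.

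Of 4 genes for iron delivery, ferritin turnover and control of the iron regulatory proteins, 2 fell and 0 rose, where 77.8% of all tested genes changed and 38.5% fell. PCBP1, a chaperone that brings iron to ferritin, fell from 322 ± 3.91 to 249 ± 4.07 CPM, a log2-fold change of -0.37. FBXL5, which marks IRP2 for degradation when iron and oxygen are present, fell from 27.8 ± 0.798 to 23.1 ± 1.06 CPM, a log2-fold change of -0.27. PCBP2 and NCOA4, the receptor that delivers ferritin to lysosomes, did not pass the test, with log2-fold changes of -0.10 and 0.07. Only 2 genes of the list on export and hepcidin were tested. HEPHL1, a copper oxidase like CP, was at 2.62 ± 0.781 CPM under hypoxia and 1.53 ± 0.132 under normoxia, a log2-fold change of 0.78. Its call was lost without hypoxia replicate 2 (0.57) and in 1 of 6 other alternatives that included it, limma on unfiltered FPKM. BMP6, named after its value was seen, had 3, 5 and 2 counts under hypoxia and 16, 11 and 10 under normoxia; it passed the filter through the group where it was high, so its call as lower is no support.

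Heme synthesis uses iron in its last step, and all 8 of its tested genes changed, 3 up and 5 down, where 77.8% of all tested genes changed. FECH, which inserts the iron, fell from 53.0 ± 2.64 to 23.5 ± 2.90 CPM, a log2-fold change of -1.17. UROD fell from 80.1 ± 1.40 to 45.1 ± 1.75 CPM, a log2-fold change of -0.83. ALAS1, the first enzyme of the pathway, also fell, and ALAD, CPOX and PPOX rose by log2-fold changes of 0.70, 0.37 and 0.28; these 4 were picked with their values in view. The call of PPOX (edgeR adjusted p = 0.0396) was lost in 5 of 6 fits that left out 1 library, all but the fit without hypoxia replicate 2, so that 7 of 8 genes were then called. Of 10 genes for heme transport and breakdown, 5 rose, 3 fell and 2 did not pass, so 80.0% changed. HMOX1, the inducible heme oxygenase that frees iron from heme, rose from 5.44 ± 0.505 to 18.2 ± 1.91 CPM, a log2-fold change of 1.74. HMOX2, the constitutive heme oxygenase, fell from 115 ± 3.47 to 54.7 ± 2.65 CPM, a log2-fold change of -1.07. ABCG2, an exporter of porphyrins among other substrates, fell from 3.47 ± 0.403 to 1.12 ± 0.228 CPM, a log2-fold change of -1.63. Named after their values were seen, the biliverdin reductases BLVRA and BLVRB, FLVCR2 and PGRMC1 rose, SLC46A1 fell, and FLVCR1 and SLC48A1 did not pass. FLVCR2 (28, 44 and 33 counts against 20, 21 and 15, edgeR adjusted p = 0.0457) lost its call in 5 of 6 such fits, all but the fit without normoxia replicate 2, and shares 332 exon bases with TTLL5 on the same strand.

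Iron-sulfur clusters, one of which switches ACO1 between aconitase and IRP1, are built in mitochondria and then handled by a cytosolic pathway. Of 20 genes for mitochondrial iron import and cluster assembly, 14 fell, 2 rose and 4 did not pass, with a median log2-fold change of -0.43. The 80.0% that changed is near the 77.8% of all tested genes, of which 38.5% fell. FDX2, among those that fell (edgeR adjusted p = 0.0362), lost its call in 4 of 6 fits that left out 1 library and in 3 of 8 other alternatives. BOLA3, which helps to pass on clusters, fell from 23.7 ± 2.22 to 10.1 ± 1.21 CPM, a log2-fold change of -1.23. SLC25A28 (mitoferrin-2) fell from 23.3 ± 1.31 to 9.22 ± 0.561 CPM, a log2-fold change of -1.34. SLC25A37 (mitoferrin-1) was among those that rose, and NFS1, HSCB, FDXR and ISCA2 did not pass, all named after their values were seen. Of 9 genes for cytosolic assembly, 7 fell, MMS19 rose and CIAO3 did not pass, so 88.9% changed, with a median of -0.53. CIAPIN1, NDOR1 and NUBP1 fell by 1.15, 0.94 and 0.88 on the log2 scale. In GENCODE v29 several of these genes share exon bases with a gene on the other strand, among them SLC46A1 with SARM1 (4421), CIAO3 with HAGHL (1744), PCBP2 with MAP3K12 (1494) and PPOX with B4GALT3 (1118). PPOX was at 9.53 and 7.83 CPM and B4GALT3 at 31.5 and 50.1 CPM. PCBP1, HMOX2, CIAPIN1 and NUBP1 share 104 to 914 bases.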

How the data were processed

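RNA of SCC25 cells was sequenced from 3 hypoxia and 3 normoxia libraries. The authors deposited whole-number read counts per gene, without normalization, and FPKM for the same genes. The FPKM of the 10 iron genes follow from their counts, 1 length per gene and the library total. For FTH1 this length was 1203 bases, beside 2030 exon bases in GENCODE v29, and for CP 5427 beside 7296. The shared exon bases given here are those of GENCODE v29 and may differ in the gene models used for the counts. The aligner, counter and use of strand are not given in the sources used here. The submitters' processing notes name the mouse builds GRCm38 and mm10, although samples and gene symbols are human, so coordinates here come only from GENCODE v29 and RefSeq on the human genome and not from the files. The labels name SCC25, and the study's description of its enrichment analysis names another oral line, SCC9.

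The test was edgeR 4.0.16 under R 4.3.3 (TMM, filterByExpr, glmQLFit, glmQLFTest, condition only), with Benjamini-Hochberg adjustment over 14255 genes at 0.05. A standard error is the size of the log2-fold change divided by the square root of F, and the prior count of log2 CPM was 2. The biological coefficient of variation was 0.0685. The code was tried on simulated counts (14236 genes) in which only 200 well-counted genes were changed, with the same dispersion for every gene. There edgeR found 101 of 101 genes changed by 1 on the log2 scale and 36 of 99 changed by 0.3, with 4.2% of calls false. In the data 77.8% of tested genes were called, so these rates do not give the power or the false calls of the real comparison. Replicates differed by more than sampling noise (chi-square per gene 4.9 to 10.8). Alternatives were DESeq2's size factors, the DESeq2 1.42.0 Wald test, no filter, at least 10 counts in every library, a replicate block, each library left out, a log2-fold change over 1, and limma 3.58.1 on log2(FPKM + 1), also with 0.1 and without the filter at a mean of 1 FPKM.

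The members, lists and tests were chosen with earlier results of these data known. Named are the 10 members, NDRG1, VEGFA and CA9, the most abundant marker of each other cell type, and 3 genes most like the tested members of largest change. Up to 3 genes per list are also named, with the largest called change, conditions that did not overlap and a log2 CPM averaging 1 or more. Some genes that this rule names are not reported here.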

Additional observations from a re-analysis of the deposited data

How the results depend on the processing

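FTH1, FTL, TFRC, ACO1 and IREB2 kept their direction and call in every alternative but the added threshold of 1, with FTH1 between 0.863 and 0.985. Leaving out 1 library gave log2-fold changes of 0.863 to 0.94 for FTH1, -0.412 to -0.306 for FTL, -0.228 to -0.173 for TFRC, -0.438 to -0.343 for ACO1, -0.4 to -0.353 for IREB2, -0.182 to -0.115 for SLC11A2 and -0.0627 to 0.0048 for STEAP3. SLC11A2 lost its call with the DESeq2 Wald test (-0.133), the replicate block (-0.136), at least 10 counts in every library (-0.0585) and limma on FPKM (-0.0808, -0.0883 with a pseudocount of 0.1, -0.0808 without a filter). STEAP3 turned positive with at least 10 counts (0.0712) and on FPKM (0.0391, 0.0414 and 0.0391). The cause was not tested, but requiring 10 counts moved the median of shared genes by 0.0775. The members that rose numbered 2 without a filter on counts or FPKM, where CP was included because no gene was left out. They numbered 1 to 2 with a library left out, where CP entered some fits through the group where it is high. This count is therefore no support. With an added log2-fold change over 1, 0 members rose and 0 fell. With that threshold the lists had 4 (uptake), 0 (chaperones), 1 (export), 2 (heme synthesis), 4 (heme transport), 6 (mitochondrial) and 1 (cytosolic) calls, by construction. The export list had 1 call with at least 10 counts, 0 and 0 with filtered FPKM, 1 with unfiltered FPKM and 1 to 2 with a library left out. Heme synthesis had 7 and heme transport 7 calls with the DESeq2 Wald test, no filter or the block, and heme transport 6 on filtered FPKM. FDX2 lost its call in 4 of 6 fits with a library left out and in 3 of 8 other alternatives. The ACO1 to IREB2 ratio ranged from -0.0852 to 0.0579 with a library left out, and the ferritin difference of 0.248 percentage points was 0.35 without the 100 most abundant genes in the total and 0.235 to 0.265 with a library left out. Between 9967 and 11920 genes were called over the alternatives on counts. Same-numbered libraries did not deviate together (correlations 0.018, -0.069 and 0.001). This shows no shared deviation but cannot exclude pairing, since pairs without a strong shared effect would look the same. The block moved the genes called from 11090 to 10875, and among the members it changed the call of SLC11A2 alone. The ferritin share with pseudogene copies was not run because none were listed, nor was the TFRC to SLC40A1 ratio, since SLC40A1 was at 0 in 5 of 6 libraries. Depth limits TF, SLC40A1 and CP, whose intervals cover counting error only.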

Other observations

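In 2 gene pairs of the iron lists, both chosen after their values were seen, relatives with the same activity moved in opposite directions. The mitochondrial iron importer SLC25A37 (mitoferrin-1) was at 607 ± 1.32 CPM under hypoxia and 279 ± 20.3 CPM under normoxia (SD, n = 3), a log2-fold change of 1.12 by edgeR, whereas its relative SLC25A28 fell. In FPKM, SLC25A37 exceeded SLC25A28 by 41.5, 43.1 and 46.8 times in the hypoxia libraries and by 7.71, 7.11 and 9.14 times in the normoxia libraries, a difference of 2.46 on the log2 scale. The ratio of HMOX1 to HMOX2 in FPKM was 0.492, 0.649 and 0.633 under hypoxia and 0.0881, 0.0852 and 0.0775 under normoxia, a difference of 2.81 on the log2 scale, so HMOX2 stayed the higher of the 2 in all 6 libraries. The pairs were chosen for their opposite changes, so the ratios are a description and no test is given.

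LCN2 (lipocalin-2), which binds iron-carrying siderophores and was likewise named after its values were seen, was counted at 1285.5 ± 44.8 CPM under hypoxia and 995 ± 23.1 CPM under normoxia (SD, n = 3), a log2-fold change of 0.37 by edgeR. In FPKM it was listed at 1566.1 to 1638.1 under hypoxia, above FTL, and at 1174.2 to 1204 under normoxia, below FTL.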
